A study of Mus musculus with 2 samples.

Results

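Dense clusters of distal open chromatin were described in the testis of 14-day-old mice. A peak of replicate 1 was used where a peak of replicate 2 overlapped it by at least 1 bp and where it lay over 1000 bp from every start of a protein-coding transcript in GENCODE release M21. Such peaks were joined where they lay within 12500 bp of each other, and runs of at least 6 peaks were kept. Of the 101172 peaks of replicate 1, 83530 were shared with replicate 2 (82.6%), and 55868 of these were distal (66.9%). The rule left 790 clusters, which held 6033 peaks, or 10.8% of the distal shared peaks.

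DNase I cuts DNA that is not covered by nucleosomes or bound proteins, and the cut ends were sequenced (DNase-seq). The series holds 2 libraries of 1 group, whole testis of male B6CASTF1/J mice, a hybrid of C57BL/6J and CAST/EiJ parents, aged 14 days and with no treatment named. Replicate 1 is labelled as tissue of 3 males and replicate 2 gives no number, and the donor entry of both is identical, so p-values or errors over the pair would measure only the spread between these samples, which may be technical. Nothing was compared between groups, and because the clusters were chosen from the peaks themselves, all values below are descriptions without a test. In whole tissue, fewer cells of a type and less accessibility per cell cannot be told apart.

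Distal accessible sites include enhancers, which raise the transcription of genes at a distance, and insulators, which bind the protein CTCF. Long runs of enhancers are often found around genes that define the identity of a cell, although such runs are usually ranked by histone acetylation or Mediator binding and not by accessibility. At this age the seminiferous tubules hold Sertoli cells, spermatogonia and meiotic spermatocytes, with Leydig, peritubular myoid, vascular and immune cells around them, and spermatids have not yet formed in number.

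The strongest replicate 1 peak of several clusters is printed to show what the members look like. In the following 4 sequences, capitals mark bases that lay under footprints, short protected stretches within a peak, in both libraries. Sequences are the plus strand of the mm10 reference, which represents C57BL/6J, read from 5′ to 3′. The Sox9 sequence is chr11:112772901-112773140, between genes; Zbtb16 is chr9:48740261-48740420, Cyp11a1 is chr9:58009081-58009360 and Mylk is chr16:34958741-34958940, each in an intron. They were chosen because they stand for a Sertoli, a spermatogonial, a Leydig and a peritubular myoid marker.
Sox9: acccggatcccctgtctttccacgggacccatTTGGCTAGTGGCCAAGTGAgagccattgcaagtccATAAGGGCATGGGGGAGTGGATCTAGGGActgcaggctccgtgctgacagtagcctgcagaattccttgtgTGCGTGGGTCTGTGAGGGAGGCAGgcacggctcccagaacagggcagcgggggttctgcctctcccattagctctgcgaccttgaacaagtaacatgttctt
Zbtb16: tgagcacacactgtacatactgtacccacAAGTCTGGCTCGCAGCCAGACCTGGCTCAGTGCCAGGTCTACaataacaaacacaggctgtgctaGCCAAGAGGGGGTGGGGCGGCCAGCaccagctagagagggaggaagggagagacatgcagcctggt
Cyp11a1: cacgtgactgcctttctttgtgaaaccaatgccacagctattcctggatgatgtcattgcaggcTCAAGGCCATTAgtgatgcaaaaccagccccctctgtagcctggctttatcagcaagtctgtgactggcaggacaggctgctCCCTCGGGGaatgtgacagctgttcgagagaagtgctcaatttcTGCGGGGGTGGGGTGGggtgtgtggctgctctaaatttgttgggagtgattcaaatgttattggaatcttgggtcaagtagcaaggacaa
Mylk: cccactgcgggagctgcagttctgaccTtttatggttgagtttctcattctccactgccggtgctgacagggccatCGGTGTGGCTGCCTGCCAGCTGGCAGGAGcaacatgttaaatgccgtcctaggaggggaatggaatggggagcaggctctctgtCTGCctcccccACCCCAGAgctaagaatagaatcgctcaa

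The capitals covered 72 bases in the Sox9 peak, 67 in Zbtb16, 37 in Cyp11a1 and 42 in Mylk. Of the 14 short motifs searched (given with the motif counts), SOX matches were found in the Sox9 and Cyp11a1 sequences, a DMRT match in Zbtb16, TEAD and E-box matches in Cyp11a1 and Mylk and an AP-1 match in Cyp11a1. Of these, only the E-box CAGCTG in the Mylk sequence lay under the capitals. Each of the 4 peaks was made of unique sequence, with a median of 1 copy in the genome for its 24-base words.

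A further pair of sequences stands for clusters built on other kinds of DNA. The Btn1a1 sequence, chr13:23432981-23433160, is the strongest peak over a transfer RNA (tRNA) gene in that cluster, n-TYgta7, and its capitals mark a match to the B box, the promoter element inside tRNA genes. The Vmn1r2 sequence, chr4:3067821-3068100, belongs to the cluster with the most peaks, and its capitals mark runs of 20 bases that also occur in another peak of the same cluster.
Btn1a1: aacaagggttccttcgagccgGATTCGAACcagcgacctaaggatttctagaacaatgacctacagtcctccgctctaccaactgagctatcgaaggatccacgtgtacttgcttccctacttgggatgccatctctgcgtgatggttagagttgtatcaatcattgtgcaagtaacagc
Vmn1r2: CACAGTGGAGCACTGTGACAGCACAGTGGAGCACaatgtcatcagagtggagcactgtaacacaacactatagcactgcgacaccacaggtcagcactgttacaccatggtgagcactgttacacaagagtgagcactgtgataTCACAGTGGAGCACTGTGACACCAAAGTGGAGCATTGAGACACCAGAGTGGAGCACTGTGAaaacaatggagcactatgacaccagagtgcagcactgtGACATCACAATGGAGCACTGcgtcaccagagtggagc

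In the Vmn1r2 sequence 115 of 280 bases were in capitals. The peaks of 741 of the 790 clusters shared no word of 20 bases with each other, so most clusters were not arrays of this kind.

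The value of a peak is the signal value of the deposited peak files, on the authors' own scale, which the labels do not explain, so it is used only to describe and rank. A cluster held a median of 7 peaks (6 to 41) and spanned a median of 24767 bp (2540 to 87565 bp), with a median density of 2.84 peaks per 10 kb. All clusters together covered 20.7 Mb. Of the 790, 109 held at least 10 peaks and 7 held at least 20. The sum of the peak values in a cluster had a median of 6.48 (replicate 1) and 6.55 (replicate 2; mean 6.51 ± 0.051, SD, n = 2). It ranged from 1.48 to 91.4 in replicate 1 and from 0.861 to 110.2 in replicate 2. The strongest peak held a median of 27.4% of its cluster's sum in replicate 1 (7.64% to 90.6%), so the typical sum came from several peaks.

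At the threshold itself, the 353 clusters of exactly 6 peaks had a median sum of 5.16 in replicate 1 and 5.24 in replicate 2, while the 638 runs of 5 peaks, left out by the rule, had 3.76 and 3.93. The replicate 1 sums of these groups overlapped widely, from 1.90 to 41.5 in the former and from 1.26 to 37.0 in the latter. The step from 5 to 6 peaks thus divides a continuous range.

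**Figure D1:**
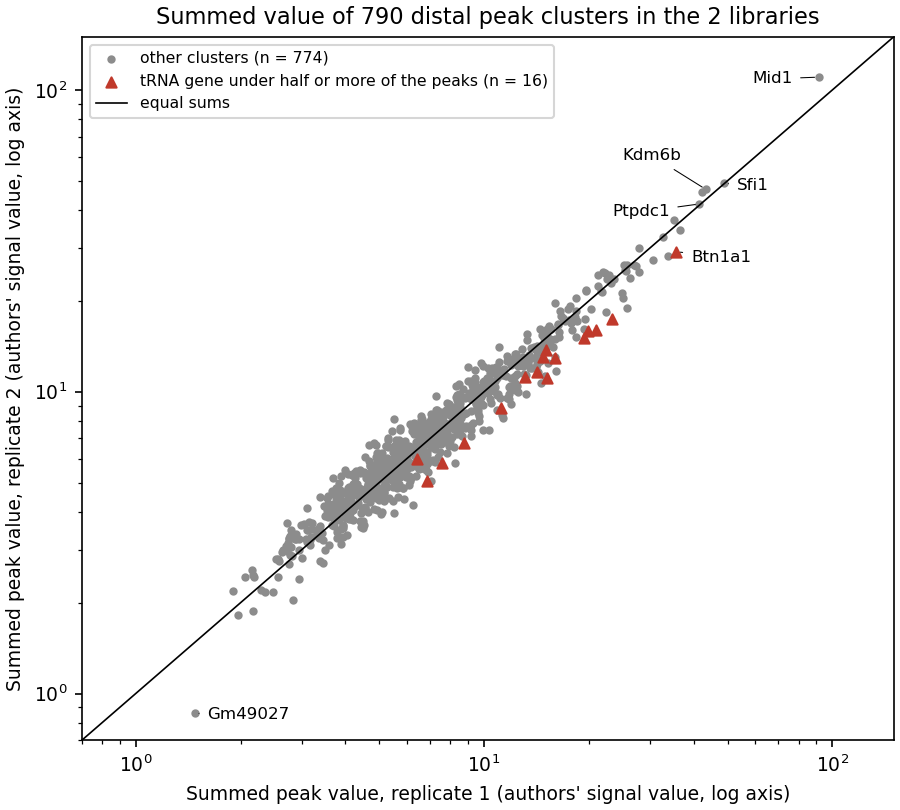
Summed peak value of each of the 790 clusters in replicate 1 (horizontal) and replicate 2 (vertical), both as the authors' signal value on log axes, with the line of equal sums. Grey points are 774 clusters and red triangles the 16 clusters with a tRNA gene under at least 50% of their peaks; the cloud follows the line, the triangles all lie below it, and Mid1 is the highest point.

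The order of the clusters by summed value was much the same in both libraries. Across clusters, which share libraries and are not independent, Spearman's rho was 0.960 and Pearson's r of the log2 sums 0.971. The log2 ratio of replicate 2 to replicate 1 had a median of 0.02 and an SD of 0.20 across clusters. Only the cluster nearest Gm49027 (chr5:123528061-123530600, overlapping Vps33a) differed by over 1.5 times, with 1.48 in replicate 1 and 0.861 in replicate 2, and none differed by over 2 times. This cluster was also the shortest and had the lowest sum of all in both libraries.

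The sum adds up the peaks of a cluster, so it tends to rise with their number. Most clusters with many peaks had high sums, but the cluster with the most peaks did not. The cluster nearest Vmn1r2, a vomeronasal pheromone receptor gene, held 41 peaks in 33531 bp (chr4:3050021-3083551), and its sums were only 4.72 and 5.68 in the 2 libraries. No single peak of it exceeded 0.360 in replicate 1 or 0.559 in replicate 2, the nearest coding start was 100534 bp from its midpoint, and the Vmn1r2 promoter had no peak in either library.

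The cluster nearest Mid1, a ubiquitin ligase gene that crosses the boundary of the pseudoautosomal region in C57BL/6 mice, held 29 peaks (chrX:169969861-170005398) and had the highest sum in both libraries, 91.4 and 110.2 (mean 100.8 ± 13.3, SD, n = 2). A pair of neighbouring peaks of 26.2 and 24.3 in replicate 1, and 32.4 and 30.4 in replicate 2, supplied most of it. Of its 29 peaks, 26 lay on repeated sequence, meaning that the 24-base words of the peak occurred at a median of at least 2 places in the genome. The placing of reads from repeats is not stated in the labels or headers, and the part of the other copies in this sum was not tested.

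Sfi1, which encodes a centrosome protein, was nearest to 28 peaks (chr11:3123241-3182980) with sums of 49.0 and 49.0, and 9 of these peaks were on repeated sequence. Ptgis, prostacyclin synthase, was nearest to 27 weaker peaks with sums of 10.3 and 10.2, and Lrrc74a to 23 peaks in 68980 bp with 32.6 and 32.4. Neither the Ptgis nor the Lrrc74a promoter had a peak. On the Y chromosome, 20 peaks nearest the predicted gene Gm21860 summed to 21.7 and 21.6, with 14 of them on repeated sequence.

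Further clusters among the 12 with the most peaks were nearest Ulk4 (19 peaks, sums 4.83 and 4.08), Zfp217 (18 peaks, 15.3 and 15.1), Fam222a (18 peaks, 17.5 and 18.7), Lemd2 (18 peaks, 25.2 and 26.4) and Cstad (17 peaks, 23.1 and 22.9). The Lemd2 cluster lay 120998 bp from the start of Lemd2 and overlapped no coding gene, and 1 peak held 51.9% of its replicate 1 sum.

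By summed value, the cluster nearest Kdm6b ranked just after those of Mid1 and Sfi1. Kdm6b, a demethylase of lysine 27 of histone H3, was nearest to 12 peaks in 19720 bp (chr11:69399421-69419140) with sums of 43.3 and 46.8 (mean 45.1 ± 2.50, SD, n = 2). Ptpdc1, a protein phosphatase gene, reached 41.5 and 41.9 with only 6 peaks (chr13:48545841-48572405), of which 1 alone had 23.2 in both libraries. The rank of this cluster thus rested mainly on a single site.

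Wnt7b, a secreted Wnt ligand, was nearest to 16 peaks with sums of 35.1 and 37.2, and Spen, a transcriptional corepressor, to 13 peaks with 36.5 and 34.3. Ptma, the nuclear protein prothymosin alpha, followed with 33.7 and 28.3, then Nr1d1, the circadian repressor REV-ERB alpha, with 27.9 and 29.8, and Fosb, a subunit of the AP-1 factor, with 30.5 and 27.3. Among the 12 highest sums only Mid1, Sfi1 and the tRNA cluster at Btn1a1 had peaks on repeated sequence or over tRNA genes.

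**Figure D2:**
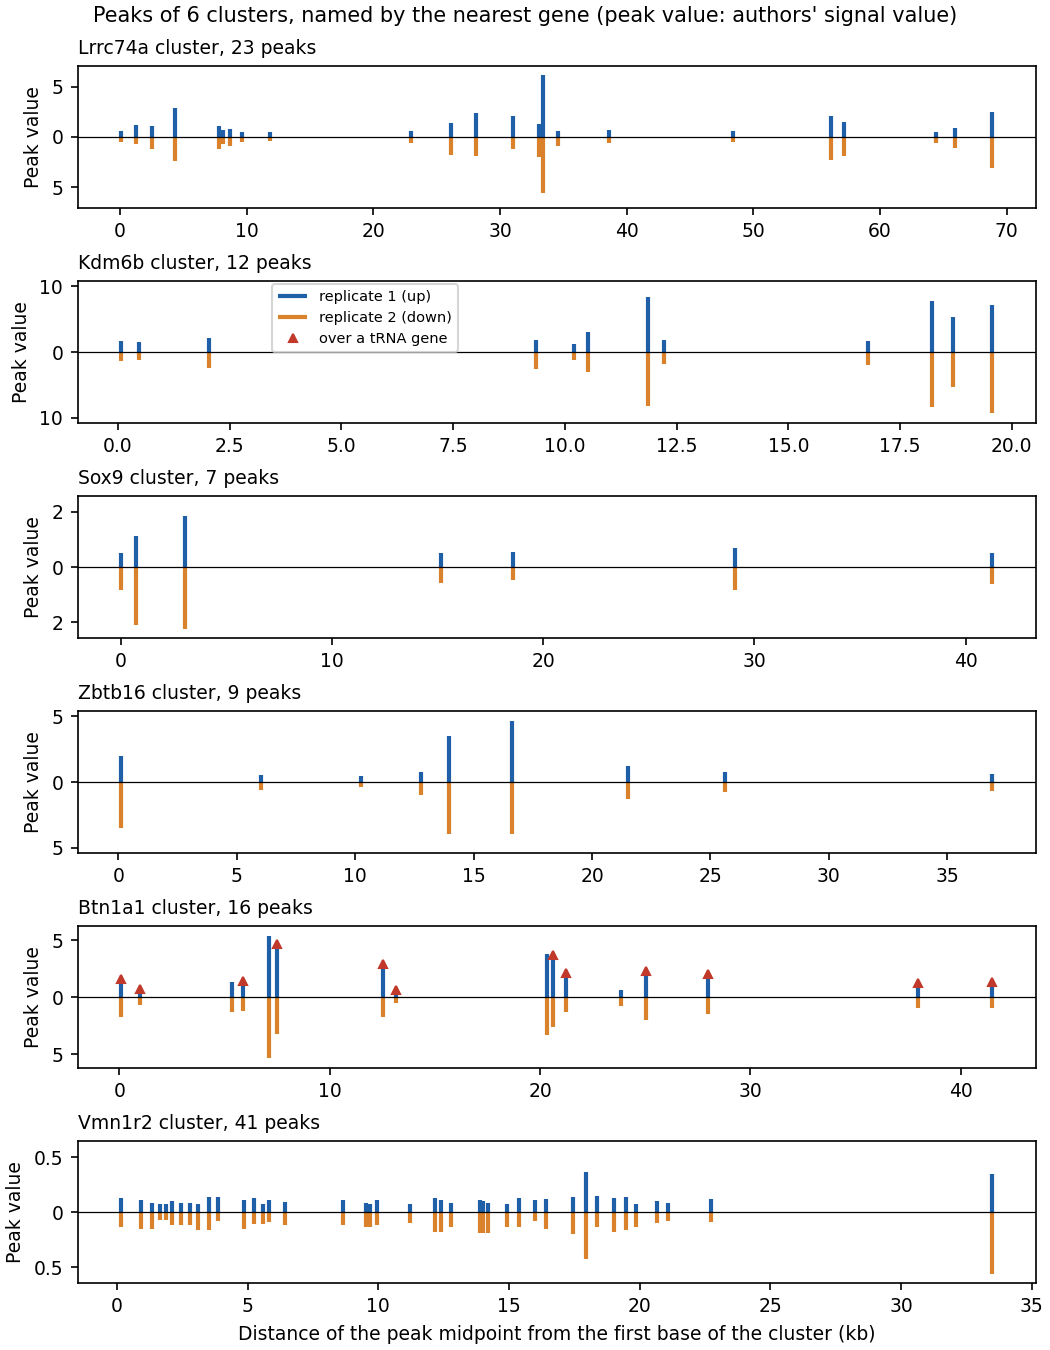
Peaks of 6 clusters by distance from the first base of the cluster (kb, horizontal); the length of a line is the peak's value in the authors' signal units, upward for replicate 1 (blue) and downward for replicate 2 (orange), and red triangles mark peaks over a tRNA gene. The scale differs between panels: the tallest replicate 1 peak was 6.11 at Lrrc74a, 8.31 at Kdm6b, 1.83 at Sox9, 4.69 at Zbtb16, 5.39 at Btn1a1 and 0.360 at Vmn1r2, where 2 of the 41 peaks stand above an even row of low ones.

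Genes of the transfer RNAs, which RNA polymerase III transcribes from promoter elements inside the gene, were a recurring part of the clusters. Of 408 tRNA genes annotated by RefSeq, 123 lay under a cluster peak. A tRNA gene lay under 124 of the 6033 cluster peaks (2.06%) and under 62 of the 49835 other distal shared peaks (0.124%). These peaks fell in 30 clusters, and in 16 of them at least 50% of the peaks covered a tRNA gene. The rule kept such peaks because tRNA starts are not protein-coding starts, and tRNA genes are known to lie in arrays.

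The 16 tRNA clusters lay beside Btn1a1, Hist1h4h, Zfp184, Prss16 and Trim27 on chromosome 13, Ctc1, Hes7 and Trim7 on chromosome 11, and single places elsewhere. The cluster nearest Btn1a1, a milk fat globule protein gene, had 12 tRNA peaks among 16 and sums of 35.6 and 29.1 (mean 32.4 ± 4.61, SD, n = 2). At Zfp184, 10 of 11 peaks covered a tRNA gene and the sums were 20.9 and 16.1, and at Hist1h4h 11 of 14 did, with 19.3 and 15.1. The cluster at Ctc1, which packs 8 peaks into 5940 bp, had 7 tRNA peaks and sums of 23.2 and 17.4. Each of these 4 clusters had the higher sum in replicate 1.

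The same direction held in all 16 tRNA clusters. Their log2 ratio of replicate 2 to replicate 1 had a median of -0.33 (-0.45 to -0.10), against 0.03 (-0.78 to 0.56) in the other 774 clusters. Over all clusters, 363 of 790 were higher in replicate 1 (45.9%). By single peaks, 115 of the 124 tRNA peaks in clusters were higher in replicate 1 (medians 1.77 and 1.36), whereas 2643 of all 6033 cluster peaks were (43.8%). Outside clusters, 53 of 62 tRNA peaks were higher in replicate 1 as well. Both libraries are of the same labelled group, and the cause of this difference was not tested.

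**Figure D3:**
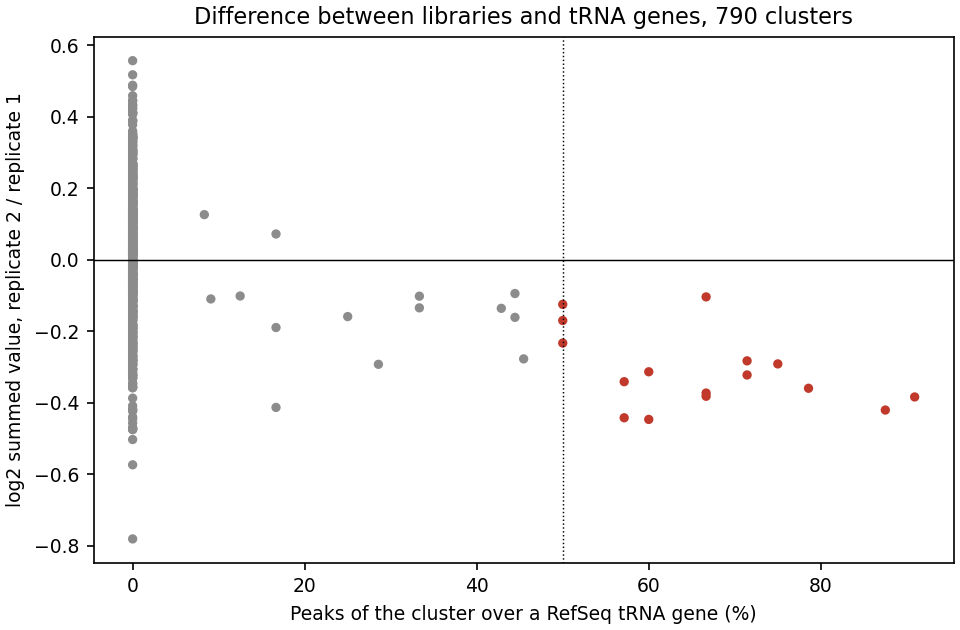
Log2 ratio of the summed value in replicate 2 to that in replicate 1 (vertical) against the percentage of the cluster's peaks that lie over a RefSeq tRNA gene (horizontal), 1 point per cluster. Red points are the 16 clusters at or beyond 50% (dotted line), which lie between -0.45 and -0.10; clusters without a tRNA peak spread from -0.78 to 0.56 around 0.

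Clusters on repeated sequence were few. In 12 of the 790, at least 50% of the peaks were on repeated sequence, among them Mid1, Gm21860 and 3 clusters near the predicted genes Gm15319 and Gm21119 on chromosome 8, in which every peak was repeated. Over all cluster peaks 2.88% were on repeated sequence, against 2.87% of the other distal shared peaks, nearly the same share.

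MicroRNA genes, whose short RNAs repress messenger RNAs that match bases 2 to 8 (the seed), lay inside 34 clusters, 46 genes of the 2202 in the annotation. Among the 46, n-TStga1 in the Hist1h4h cluster, is typed as a microRNA gene there but carries the name of a tRNA gene. Mature sequences were found by symbol for 26 of the 46. The Nanos3 cluster held Mir23a, Mir27a and Mir24-2, which are made from 1 precursor transcript, the Ppara cluster held Mirlet7c-2 and Mirlet7b, and the Gpr157 cluster held Mir34a. Their main mature RNAs, from RefSeq on GRCm38.p6, are printed with the seed in capitals because they show which clusters carry related or unrelated targeting sequences.
mmu-let-7b-5p: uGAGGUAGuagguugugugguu
mmu-let-7c-5p: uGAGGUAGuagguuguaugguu
mmu-miR-23a-3p: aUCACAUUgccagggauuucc
mmu-miR-27a-3p: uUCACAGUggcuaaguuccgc
mmu-miR-24-3p: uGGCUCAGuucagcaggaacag
mmu-miR-34a-5p: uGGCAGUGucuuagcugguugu

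The let-7 pair shares the seed GAGGUAG, while the 3 RNAs of the Nanos3 cluster each have another seed. The Ppara cluster had 6 peaks with sums of 8.52 and 7.26, the Gpr157 cluster 12 peaks with 10.9 and 12.004. Mir132 and Mir212, which share the seed AACAGUC on their 3p arms, lay in the cluster nearest Hic1 (sums 11.9 and 10.5), and Mir143 with Mir145a, abundant in smooth muscle, in the cluster nearest Il17b (13.0 and 11.5). Mir199a-2 lay in the Dnm3 cluster (4.68 and 5.92), Mir142, a microRNA of blood cells, in the Tspoap1 cluster (4.08 and 4.06), and Mir196a-1 in the Hoxb9 cluster (10.7 and 10.3). Whether the peaks act on these genes or on their neighbours was not tested.

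Relative to genes, clusters lay at all distances. The start nearest to the midpoint was a median of 18707 bp away (3 to 386434 bp), within 10 kb for 250 clusters and over 100 kb for 48. Of the 790 clusters, 450 overlapped their nearest gene, 49 overlapped another coding gene only and 291 overlapped none. A coding start lay inside the span of 286. The 790 clusters had 751 nearest genes, which is 3.43% of the 21911 protein-coding genes.

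Some genes were nearest to several clusters, 35 genes to at least 2 and 4 to 3. The latter were Cstad with 32 peaks in all (sums 55.4 and 52.2), Irf2bp2, a transcriptional corepressor, with 26 peaks (30.2 and 34.7), Gse1 with 23 (23.0 and 23.5) and Zfp36l1, an RNA-binding protein that shortens the life of messenger RNAs, with 21 (22.8 and 23.2). Sox9, Mro, Synpo2, Id2 and Ccn2 were the genes with 2 clusters that were also in a list below. A cluster was followed by another within 50 kb in 56 cases.

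The promoters of the nearest genes were often accessible. A peak lay within 1000 bp of a start in both libraries for 638 of the 751 nearest genes (85.0%), against 68.7% of all protein-coding genes. The highest promoter peak of the nearest genes had a median value of 2.49 in replicate 1 and 2.13 in replicate 2, and that of all genes 1.42 and 1.30. Clusters whose nearest gene had no promoter peak, such as those at Vmn1r2, Ptgis and Lrrc74a, were the smaller group. Of the genes with an accessible promoter, 4.24% were nearest to a cluster, which is the closer background for lists of active genes.

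To see which cell types the nearest genes point to, 18 lists of marker and housekeeping genes and 11 lists of pathway genes were counted. Promoters of testis genes were mostly accessible and those of blood and liver genes mostly not: 28 of 29 meiotic prophase genes, all 20 piRNA pathway genes and 30 of 32 Sertoli genes were accessible in both libraries, against 2 of 15 leukocyte, 2 of 10 erythroid and 3 of 15 liver genes. Accessible promoters were not limited to testis lists, since 11 of 15 brain, 8 of 15 skeletal muscle, 4 of 12 epidermis and 4 of 10 epididymis genes had one. Of 24 spermatid genes, 8 had an accessible promoter.

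**Figure D4:**
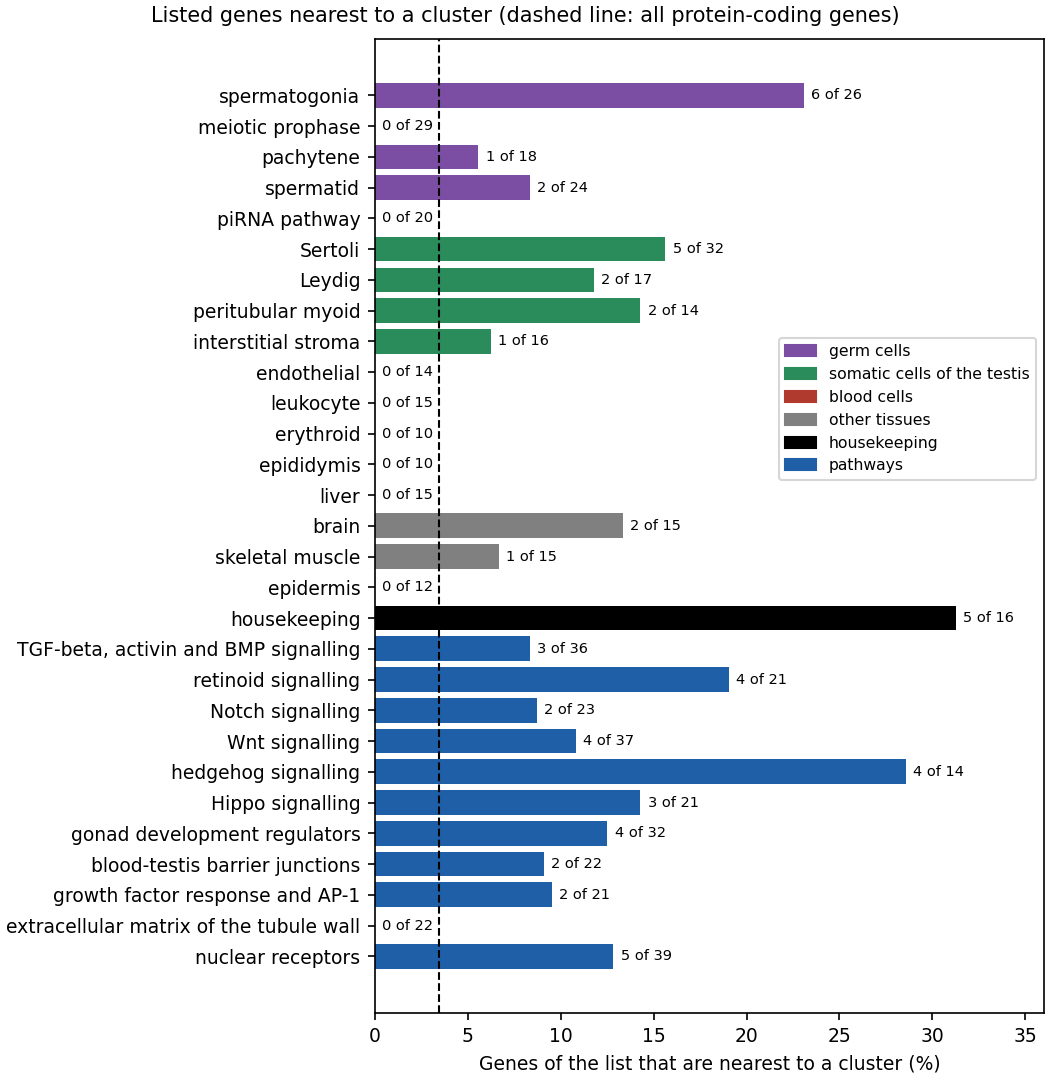
Percentage of the genes of each list that were nearest to a cluster (horizontal bars from 0, coloured by the kind of list), with the number of genes beside each bar; the dashed line is the 3.43% of all protein-coding genes. The longest bars are housekeeping (5 of 16), hedgehog signalling (4 of 14) and spermatogonia (6 of 26), and meiotic prophase and piRNA genes have none.

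Most germ cell genes nearest to a cluster were of the spermatogonial list. Of 26 spermatogonial genes, 6 were nearest to a cluster (23.1%): Zbtb16, Nanos3, Foxo1, Egr4, Pou3f1 and Ccnd1. Foxo1 and Ccnd1 reached 6 peaks through peaks of the list that overlap each other. With such peaks merged, a setting chosen after seeing the data, the other 4 remained (15.4%), and over 2500 bp from starts only Nanos3 and Zbtb16 did (7.69%). None of the 29 meiotic prophase genes, such as those of the synaptonemal complex, and none of the 20 piRNA pathway genes were nearest to a cluster. Nearly all had accessible promoters. Of all genes with an accessible promoter 4.24% were nearest to a cluster, and at that share lists this short can hold none. The later stages had 1 of 18 pachytene genes, Piwil1, and 2 of 24 spermatid genes, Odf1 and Spata3. Over all germ cell lists this gave 9 of 116 genes (7.76%), 7 with overlapping peaks merged (6.03%) and 5 over 2500 bp from starts (4.31%).

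Zbtb16, which encodes the PLZF factor needed to keep spermatogonial stem cells, had a cluster of 9 peaks inside its introns (chr9:48723721-48760800), 93684 bp from the nearest start. Its sums were 14.5 and 16.1 (mean 15.3 ± 1.11, SD, n = 2), the second highest among spermatogonial genes. Peak by peak, the values in replicate 1 were 2.00, 0.516, 0.430, 0.790, 3.49, 4.69, 1.26, 0.747 and 0.591 from left to right. In replicate 2 the same peaks had 3.51, 0.589, 0.393, 0.974, 3.95, 3.98, 1.27, 0.755 and 0.664. The same 3 peaks were highest in both libraries.

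Nanos3, an RNA-binding protein that protects germ cells, had 14 peaks with sums of 18.2 and 17.7 (mean 17.95 ± 0.338, SD, n = 2), in the cluster that also holds the Mir23a genes. Its own promoter had no peak in replicate 1 and 0.827 in replicate 2, the weakest promoter signal among the 6 genes. Ccnd1, cyclin D1, had 6 peaks within 10993 bp around its start with 11.03 and 12.51. The clusters of Pou3f1, a factor of stem cell renewal (4.85 and 5.05), Foxo1, a nuclear marker of stem cells (4.204 and 3.756), and Egr4, a zinc finger factor (2.95 and 2.99), were below the median of all clusters. Piwil1, the PIWI protein of pachytene cells, had 5.79 and 5.70.

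The 2 spermatid clusters lay beside genes of later stages with little promoter signal. Odf1, an outer dense fibre protein of the sperm tail, was nearest to 9 peaks with 7.47 and 7.45, and its promoter had no peak in either library. Spata3 was nearest to 6 peaks with 6.32 and 7.47, with promoter values of 0.376 and 0.385. Distance is the only link drawn here between these clusters and the genes.

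Somatic cells of the testis were represented by 10 of 93 genes (10.8%). Sertoli genes, from the nurse cells of the tubule, contributed 5 of 32 (15.6%): Sox9, Gata4, Mro, Espn and Tjp1. Leydig genes, of the androgen-producing cells, contributed Cyp11a1 and Scarb1 of 17, peritubular myoid genes Mylk and Synpo2 of 14, and interstitial stroma Col1a1 of 16. None of 14 endothelial genes was nearest to a cluster, but this depended on the cutoff. It was 4 of 14 (28.6%) with at least 4 peaks, against 10.9% of all coding genes. With a joining distance of 25 kb it was 3 of 14 (21.4%), against 8.42%.

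Sox9, the transcription factor that directs Sertoli cell fate, had 2 clusters of 7 peaks. The nearer one (chr11:112769987-112811320) surrounds the gene, with sums of 5.73 and 7.61 (mean 6.67 ± 1.33, SD, n = 2). The other (chr11:113158661-113178655) had 7.16 and 7.05, and its midpoint lay 386434 bp from the nearest Sox9 start, the longest distance of any cluster. In the nearer one the difference came mostly from 2 peaks at its left end, with 1.12 and 1.83 in replicate 1 and 2.08 and 2.22 in replicate 2.

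Gata4, a zinc finger factor of Sertoli and Leydig cells, had 7 peaks in and around its introns (chr14:63240841-63267381) with sums of 5.54 and 5.73. Mro had 2 clusters on chromosome 18 (4.94 and 6.29, and 5.84 and 6.44). Espn, an actin-bundling protein of the Sertoli cell junctions, had the strongest Sertoli cluster, 9 peaks with 19.4 and 16.1 (mean 17.7 ± 2.34, SD, n = 2), and Tjp1, the tight junction protein ZO-1, had 6 peaks with 5.27 and 4.82. Apart from Espn, the Sertoli clusters were near the median of all clusters, 6.48 and 6.55.

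Cyp11a1, the enzyme that starts steroid synthesis by cutting the side chain of cholesterol, had 6 peaks (chr9:57997581-58011336) with sums of 5.72 and 5.87. Its values in replicate 1 were 0.613, 0.866, 1.41, 0.419, 1.84 and 0.575, and in replicate 2 they were 0.551, 0.929, 0.914, 0.578, 2.25 and 0.649. The intronic peak printed above was highest in both. Scarb1, the receptor that takes up cholesterol from lipoproteins, had 10 peaks with a mean sum of 12.3 ± 0.252 (SD, n = 2). Mylk, the myosin light chain kinase of smooth muscle, had 9 peaks with 9.08 and 9.87, and Synpo2, an actin-binding protein, 2 clusters with 4.08 and 4.75 and with 6.76 and 7.59. Col1a1, a chain of collagen type I, had 7 peaks with 6.00 and 5.56.

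Lists of cells that should be absent or rare gave low counts with exceptions. No gene of the leukocyte (15), erythroid (10), epididymis (10), liver (15) or epidermis (12) lists was nearest to a cluster. The brain list had 2 of 15, Mbp, a myelin protein (3.49 and 3.88), and Rbfox3, a neuronal splicing factor (6.11 and 5.26), and the skeletal muscle list 1 of 15, Ryr1, a calcium channel (6.56 and 6.25). Over the 67 genes of other tissues this was 3 genes (4.48%), close to the 3.43% of all genes and the 4.24% of genes with accessible promoters. This pooled share hides a difference between lists. The brain list had 13.3%, above the Leydig list (11.8%), and the skeletal muscle list 6.67%. With replicate 2 alone brain had 5 of 15 (33.3%), against 8 of 32 Sertoli (25%) and 9 of 26 spermatogonial genes (34.6%). With at least 4 peaks it had 4 of 15 (26.7%), below both of these lists. By the gene nearest to the most peaks of a cluster it had 3 of 15, a larger share than Sertoli (5 of 32). Brain had 1 of 15 at 5 kb, with 50% overlap and with starts of every type. It had 0 of 15 with at least 10 peaks and with the shorter lists.

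Housekeeping genes had a larger share than any cell type list, 5 of 16 (31.3%), but 3 of 16 (18.8%), below the spermatogonial share, with replicate 1 alone or with the gene nearest to the most peaks of a cluster. Among them were Actb (7.85 and 7.11), Eef1a1 (7.09 and 7.33), Polr2a (8.38 and 8.16) and Ywhaz (5.20 and 4.89). All 16 housekeeping promoters were accessible. The lists therefore do not point to 1 testis cell type. Spermatogonial and Sertoli genes had the largest counts among cell types, 6 of 26 and 5 of 32. By share, Sertoli (15.6%) was near peritubular myoid (14.3%) and brain (13.3%). The order turned to 4 and 5 with overlapping peaks merged and to 2 and 3 over 2500 bp from starts. It also turned with 50% overlap (3 and 5), at least 4 peaks (8 and 10), 5′ ends alone (6 and 8) and every gene within 50 kb (5 and 8). With starts of every type the counts were equal (3 and 3). Elsewhere spermatogonia stayed ahead, as at 25 kb (11 and 8) and 5 kb (3 and 0). The counts are small, and no list was set against another by a test.

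Signalling and regulatory lists showed where receptors, ligands and effectors were nearest to clusters. Of 21 retinoid genes 4 were (19.05%), among them the receptors Rara (11 peaks, 22.2 and 24.7), Rxra (9.55 and 8.90) and Rxrg (5.88 and 4.40). Retinoic acid, which acts through receptors of the RAR and RXR families, starts spermatogonial differentiation. Rarg, another receptor of the list, was not nearest to a cluster. No enzyme of retinoic acid synthesis or breakdown on the list was nearest to a cluster under the main rule. Other settings brought some in. Cyp26b1 was nearest with a joining distance of 25 kb, with replicate 1 alone and with 5′ ends of genes alone. Cyp26a1 and Cyp26b1 were nearest with at least 4 peaks, and Dhrs3 by the gene nearest to the most peaks. Rara, at 23.5 ± 1.80 (SD, n = 2), had the strongest cluster of the list.

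Hedgehog signalling had 4 of 14 genes (28.6%), the ligand Shh (4.64 and 3.998), the co-receptors Boc (4.74 and 5.15) and Cdon (3.55 and 4.07) and the effector Gli2 (4.49 and 3.53), all below the median of all clusters. Of these only Boc was nearest to a cluster when starts of genes of every type were used. Only Shh had a start within 50 kb of the midpoint of a cluster. Counted that way, hedgehog signalling had 1 of 14 genes (7.14%), against 6.48% of all coding genes. Dhh, the hedgehog ligand that Sertoli cells secrete, was not among them. Wnt signalling had 4 of 37, the ligands Wnt6 (10.7 and 10.8) and Wnt10a (14.1 and 13.7), which are neighbours on chromosome 1, the receptor Fzd7 (2.76 and 3.25) and the nuclear effector Tcf7l1 (7.34 and 7.22). The list does not hold Wnt7b, the ligand gene nearest to the stronger cluster described above. Notch signalling had 2 of 23, the ligand Jag1 (4.14 and 4.08) and the coactivator Maml3 (9.53 and 10.4). It had 0 of 23 with replicate 2 peaks as members, over 2500 bp from starts, with 50% overlap, with the shorter lists and at 5 kb. With at least 4 peaks or at 25 kb it had 8 of 23 (34.8%), against 10.9% and 8.42% of all coding genes.

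For TGF-beta, activin and BMP signalling, 3 of 36 genes were nearest, the receptor Tgfbr3, betaglycan, which binds inhibin (12 peaks, 8.37 and 9.38), and the target genes Id3 (13.2 and 11.4) and Id2, with 1 cluster at its start (mean 11.3 ± 1.77, SD, n = 2) and 1 far away (2.72 and 2.96). Hippo signalling had 3 of 21, Amotl2 (10.3 and 9.98), Ajuba (6.48 and 6.48) and the target gene Ccn2, with clusters of 9.11 and 7.60 and of 1.90 and 2.19. Gonad regulators had 4 of 32: besides Sox9 and Gata4 these were the GATA cofactor Zfpm1 (9.28 and 7.88) and the growth factor receptor Igf1r (4.75 and 5.398). The 2 blood-testis barrier genes of 22 were Espn and Tjp1, also in the Sertoli list.

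Immediate early genes, which respond within minutes to growth factors, had 2 of 21, both strong: Fosb (30.5 and 27.3) and Ier2 (17.5 and 17.3). This count depended on the library and the setting. With replicate 2 alone 9 of 21 were nearest (42.9%), against 8.53% of all coding genes. With replicate 1 alone it was 2 of 21 (9.52%), against 5.34%, and over 2500 bp from starts 0 of 21. Nuclear receptors had 5 of 39, Nr1d1 (27.9 and 29.8) and Ppara, a fatty acid sensor (8.52 and 7.26), besides the retinoid receptors named above. None of the 22 genes of the tubule wall matrix was nearest, but 6 of 22 were with at least 4 peaks or with a joining distance of 25 kb. Taking the 11 pathway lists as 1 set, 30 of 277 genes were nearest to a cluster (10.8%), the same share as the somatic lists, and 264 of the 277 had an accessible promoter.

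Compared with the 49835 distal shared peaks outside clusters, members were stronger in both libraries. The median value was 0.731 against 0.511 in replicate 1 and 0.763 against 0.540 in replicate 2. Runs of 2 to 5 peaks lay between, with 0.559 and 0.593, and peaks standing alone were lowest, with 0.441 and 0.464. The interquartile ranges overlapped, 0.511 to 1.18 in clusters and 0.355 to 0.801 outside in replicate 1. A peak value was not used by the rule, but a stronger peak is more readily listed in both libraries, which the rule did use, so this order is a description.

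Members also passed the authors' shorter, stricter lists more often, 68.6% against 63.8% in replicate 1 and 75.1% against 68.4% in replicate 2. They held a mean of 2.58 footprints against 2.16 in replicate 1, and 2.88 against 2.51 in replicate 2, and were slightly wider (median 200 bp against 184 bp). Of the members, 33.5% lay in introns and 59.8% between genes, against 40.8% and 53.3% outside. Median distance to the nearest coding start was 16254 bp against 22153 bp. Within 1000 bp of a start of another kind of gene lay 592 members (9.81%), against 6.37% of the other peaks. The median GC content was 54.0% against 51.5%.

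The letters under the peaks were searched for 14 short motifs on either strand in a window of 200 bp around the peak's midpoint. The widest relative gaps were those of 2 motifs more frequent in members. The tRNA B box GTTCGANNC was in 1.97% of members and 0.449% of other distal peaks; without peaks over tRNA genes or repeated sequence it was in 0.471% of members. The cyclic AMP response element TGACGTCA, bound by CREB and CREM factors, was in 44 members (0.729%) and in 0.379% of the others.

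A further 6 motifs, of tissue factors and of CTCF, were rarer among members than among other distal peaks. The SOX motif ACAANG was in 37.1% against 41.4%, the GATA motif AGATAA in 8.55% against 10.6%, the DMRT motif TACANTGT in 4.43% against 6.16% and the CTCF consensus in 11.9% against 14.1%. The TEAD motif GGAATG was in 11.1% against 12.02% and the RUNX motif TGTGGT in 12.4% against 13.5%. Members had the higher GC content, as given above, and its part in these differences was not tested. A DMRT match can contain a SOX match, so these counts are not separate.

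The RFX half-site GTTGCCNNG and the ETS motif CCGGAAGT went the other way, with 3.81% against 3.24% and 0.862% against 0.763%. The shares of the last 4 motifs were closer. The AP-1 motif TGANTCA was in 6.56% against 6.79%, the NR5A1 motif CAAGGTCA in 3.48% against 3.53%, the NRF1 consensus in 0.978% against 0.967% and the E-box CAGCTG in 19.7% against 19.1%. Over all distal shared peaks, the shares ranged from 0.417% for the cyclic AMP element to 40.9% for SOX. A match says only that the letters are present.

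Clusters were spread over all chromosomes but unevenly. Chromosome 11 had the highest density, 74 clusters or 6.06 per 10 Mb, and chromosome 2 the largest number, 79. Among autosomes chromosome 16 was lowest with 1.63 per 10 Mb. The X chromosome had 9 clusters, 0.526 per 10 Mb, and 5.36% of its distal shared peaks were in clusters, against 10.8% over the whole genome. The Y chromosome had 1, the Gm21860 cluster, whose 20 peaks were 40.8% of its 49 distal shared peaks, the highest share of any chromosome.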

How the data were processed

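DNase-seq libraries of testis were analysed as 1 group of 2 replicates, named in the labels. The authors deposited peak lists on mm10 with a signal value per peak, made per library and not pooled, per the file headers of the accompanying descriptions. For the aligner, the peak caller and the depth in reads, nothing is stated in the labels or headers. In the footprint files the authors deposited, the p-value is the threshold 0.01 throughout, so footprint positions alone were used. The longer lists held 101172 and 117359 peaks, of which 1321 and 1643 overlap the peak before them. A cluster's replicate 2 sum counts each overlapping peak once. Starts, genes and microRNA genes came from GENCODE M21, tRNA genes and mature microRNAs from RefSeq on GRCm38.p6, the same build. Python 3.11.15, numpy 2.4.6, pandas 2.3.3 and numba 0.67.0 were used, and the joining was tested on simulated peaks.

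The members and the 29 lists were chosen with earlier results of these data known. Of the list genes, Six6os1, H1f6 and H1f7 were not matched by symbol. Clusters were named where they were among the 12 with the most peaks or the 12 with the highest mean sum, or where the nearest gene, by the start nearest to the midpoint, was in a list; of these, 3 are not reported here. Clusters named for Gm49027, tRNA genes, repeats, microRNAs or several clusters per gene were chosen after their values were seen. Alternatives changed the joining distance, the number of peaks, the distance from starts, the overlap, the peak lists, the starts, the nearest gene and the libraries used.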

Additional observations from a re-analysis of the deposited data

How the results depend on the processing

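The number of clusters depends on the joining distance and on the least number of peaks, which are conventions. It was 203 with a distance of 5 kb, 2001 with 25 kb, 2777 with at least 4 peaks, 109 with at least 10, 504 where overlap had to cover 50% of both peaks and 177 with the shorter lists. Using 1 library alone gave from 1265 to 2093. With replicate 2 peaks as members there were 784 clusters, and 763 of the 790 were overlapped by one of them (96.6%).

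In the same order, the share of distal peaks in clusters was 2.75%, 31.9%, 26.2%, 2.49%, 7.70% and 4.27%, and from 14.2% to 21.9% with 1 library. It was 9.12% beyond 2500 bp from starts, 13.9% with the 5′ ends of genes alone, 9.16% with starts of genes of every type, 10.3% with overlapping peaks merged and 10.3% without repeated and tRNA peaks. The last 2 settings were chosen after seeing the data. The median summed value was 7.19 at 5 kb, 3.88 with at least 4 peaks, 12.9 with at least 10, 6.43 beyond 2500 bp, 6.84 with 50% overlap, 9.69 with the shorter lists, 7.12 with 5′ ends alone, 6.37 with starts of every type, 6.399 without repeated and tRNA peaks and from 5.24 to 5.70 with 1 library.

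The genes nearest to a cluster numbered 1419 when every gene within 50 kb counted, 200 at 5 kb, 1845 at 25 kb, 2380 with at least 4 peaks, 109 with at least 10, 491 with 50% overlap, 177 with the shorter lists and from 1171 to 1870 with 1 library. The share of all coding genes nearest to a cluster was 0.913% at 5 kb, 8.42% at 25 kb, 10.9% with at least 4 peaks, 0.497% with at least 10, 2.63% beyond 2500 bp, 2.24% with 50% overlap, 0.808% with the shorter lists, 1.66% with starts of every type and from 5.34% to 8.53% with 1 library. It was 4.78% with 5′ ends alone and 3.30% with overlapping peaks merged. The germ cell share was 2.59% at 5 kb, 12.9% at 25 kb, 12.1% with at least 4 peaks, 4.31% beyond 2500 bp, 0.862% with at least 10 peaks, 3.45% with 50% overlap, 2.59% with the shorter lists and 3.45% with starts of every type, 6.03% with overlapping peaks merged, and from 8.62% to 11.2% with 1 library. The somatic share was 2.15% at 5 kb, 21.5% at 25 kb, 30.1% with at least 4 peaks, 1.08% with at least 10, 2.15% with the shorter lists, 5.38% with starts of every type, 16.1% with 5′ ends alone and from 15.1% to 24.7% with 1 library. The share of other tissues was 0% with at least 10 peaks and 0% with the shorter lists, which left no gene of these lists, and from 5.97% to 10.4% with 1 library. The germ cell share was above the somatic one at 5 kb and with the shorter lists, where 3 germ cell and 2 somatic genes were left, and below it under the other settings. Of 862 values of the 76 named clusters under the alternatives, 541 stayed within the spread between the libraries. The causes of the other changes were not tested. A named cluster that a setting lost gave no value there, so 541 of 862 describes only clusters that were kept. Some of these outcomes were fixed in advance. With at least 4 or at least 10 peaks, a kept cluster had the same peaks and thus the same sum. With replicate 2 peaks as the base, a value near the replicate 2 sum lay outside the SD of the pair. The count therefore does not measure how stable the sums were. Of all clusters of the main rule, 13.8% were overlapped by a cluster with at least 10 peaks, 22.3% with the shorter lists and 25.1% at 5 kb. It was 63.7% with 50% overlap, 76.6% beyond 2500 bp and at least 81.1% under the other settings. No paired analysis was possible because the series has 1 group. Depth in reads is unknown, so no counting error was given.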
